A study of Mus musculus with 14 samples.

Results

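Clade B serpins were followed here across peritoneal macrophages of C57BL/6 mice, through Serpinb2, Serpinb10, Serpinb7, Serpinb8, Serpinb6a and Serpinb9. They are 6 of 27 clade B serpin genes that had a named and measured probe on the array, and 6 of 20346 genes measured in all. The set was chosen by signal levels in these arrays, because Serpinb2, Serpinb7 and Serpinb10 separate thioglycollate-elicited from resident cells, so the differences between elicited and resident cells are given below as a description and were not tested for these genes. RNA was hybridised to 14 single-dye (Cy3) arrays, 1 per sample, in 4 groups. Thio+IL-4c (4 arrays) came from mice given 2 ml of 4% thioglycollate medium together with IL-4 complex, which is 5 µg of the cytokine held by 25 µg of antibody 11B11, and Thio (3 arrays) from mice given the thioglycollate medium alone. IL-4c (4 arrays) came from mice given the IL-4 complex alone, and PBS (3 arrays) from mice given the PBS vehicle, whose titles call them untreated. All injections were into the peritoneum and all cells were sorted as positive for CD11b and for the macrophage surface protein that Adgre1 encodes. The labels do not say whether arrays of a group came from separate animals, and p-values then measure only the spread between these samples.

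Clade B serpins are protease inhibitors that mostly act inside the cell, because they lack the classical signal for secretion. A serpin offers its reactive loop to a protease as bait, and once cut it changes shape and traps the protease in an inactive complex. Resident peritoneal macrophages live in the cavity at rest, whereas thioglycollate, an irritant, draws monocyte-derived macrophages into it. IL-4 turns macrophages to the alternative, or M2, state through the transcription factor STAT6, and the complex with its antibody prolongs its action in the animal.

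The members lie in both mouse clusters of the clade. On chromosome 1, in the GRCm38.p6 assembly, 12 clade B genes span 747804 bp, and Serpinb7, Serpinb2, Serpinb10 and Serpinb8 follow each other in that order at its end. Serpinb2 and Serpinb10 are 3393 bp apart. Serpinb6a and Serpinb9 belong to the cluster on chromosome 13, where 17 annotated entries, 1 of them a pseudogene, span 1160703 bp.

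The promoter windows of 4 members are shown because these genes changed most between groups. Each window is the RefSeq sequence from 250 bases before to 50 after the transcript start in GRCm38.p6, and is printed 5′ to 3′ on the strand of the gene. The windows are chr1:107422439-107422738 for Serpinb7, chr1:107511173-107511472 for Serpinb2 and chr1:107528753-107529052 for Serpinb10, all on the plus strand, and chr13:34002745-34003044 for Serpinb6a on the minus strand. Capitals mark matches to TTCNNNNGAA, the spacing that STAT6 is known to prefer, and to TTCNNNGAA, the spacing common to other STAT factors.
Serpinb7: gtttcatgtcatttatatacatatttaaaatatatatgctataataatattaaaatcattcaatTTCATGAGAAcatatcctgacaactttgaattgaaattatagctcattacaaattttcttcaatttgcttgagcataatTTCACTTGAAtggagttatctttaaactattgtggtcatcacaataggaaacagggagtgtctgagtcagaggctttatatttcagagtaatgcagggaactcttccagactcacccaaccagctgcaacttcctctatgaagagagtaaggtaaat
Serpinb2: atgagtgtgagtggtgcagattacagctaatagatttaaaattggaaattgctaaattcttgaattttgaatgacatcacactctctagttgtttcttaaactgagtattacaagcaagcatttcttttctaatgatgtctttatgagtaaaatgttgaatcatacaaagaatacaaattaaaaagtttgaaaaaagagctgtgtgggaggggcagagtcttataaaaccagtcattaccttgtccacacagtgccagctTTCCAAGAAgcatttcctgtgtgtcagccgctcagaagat
Serpinb10: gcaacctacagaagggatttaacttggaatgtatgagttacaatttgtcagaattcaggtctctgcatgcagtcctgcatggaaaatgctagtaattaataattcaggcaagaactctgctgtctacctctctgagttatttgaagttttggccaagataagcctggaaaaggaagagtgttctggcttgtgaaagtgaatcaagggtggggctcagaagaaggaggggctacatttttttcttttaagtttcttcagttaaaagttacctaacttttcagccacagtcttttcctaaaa
Serpinb6a: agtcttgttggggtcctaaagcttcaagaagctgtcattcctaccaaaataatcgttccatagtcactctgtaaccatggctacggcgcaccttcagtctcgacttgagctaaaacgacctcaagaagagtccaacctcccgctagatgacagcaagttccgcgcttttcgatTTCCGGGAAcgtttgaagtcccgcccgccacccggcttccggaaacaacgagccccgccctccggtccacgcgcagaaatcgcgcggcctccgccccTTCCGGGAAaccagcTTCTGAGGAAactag

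Both motifs read the same on either strand. The Serpinb7 window held 2 matches to TTCNNNNGAA, at -186 to -177 and at -107 to -98 from the start, and none to TTCNNNGAA. Of 32851 RefSeq promoter windows of this length, 6.95% held TTCNNNNGAA and 8.30% held TTCNNNGAA. The Serpinb2 window held 1 TTCNNNGAA, 11 to 19 bases after the start. In a further Serpinb2 window, for another transcript start, the same match lies at -77 to -69. Both Serpinb2 windows lie wholly inside the annotated gene, which spans 107500892 to 107525600. The Serpinb10 window held neither motif. The Serpinb6a window held TTCNNNGAA 2 times and TTCNNNNGAA 1 time, without overlap between them. A further window of Serpinb6a, for another transcript start, had no match, and neither had those of Serpinb8 and Serpinb9. The pattern TGANTCA, which is looser than the AP-1 motif TGA(G or C)TCA, was held by 7.81% of windows on either strand. It matched in the 4 members on chromosome 1 and in neither on chromosome 13. The matched letters were TGAGTCA, an AP-1 motif, in Serpinb7 and Serpinb8, but TGAATCA in Serpinb2 and Serpinb10. Other genes of the clusters were not searched. Further motifs searched were GATAA (25.4% of windows), TTGCNNAA (10.8%) and GAGGAA (28.3%). GATAA matched in Serpinb7, Serpinb10 and the further Serpinb2 window, TTGCNNAA in Serpinb2, and GAGGAA in Serpinb7 and Serpinb6a. A match describes the letters of a window and not a bound site.

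Levels are log2 of the processed signal relative to the 75th percentile of the same array, so that 0 marks that percentile, and each member was read by 1 probe. All members were well above the scanner's background on every array, with the exception of Serpinb7, which was so on 2 of 4 Thio+IL-4c and 2 of 3 Thio arrays. The macrophage markers Itgam (the gene of CD11b), Adgre1, Csf1r and Mertk lay above the 75th percentile on all 14 arrays. Fcgr1, of the same list, did not. It was at -2.01 to -0.94 in Thio+IL-4c and -6.97 to -5.16 in IL-4c, against 1.23 to 1.81 in Thio and 0.29 to 1.14 in PBS. The 11 resident macrophage markers, Gata6 among them, summed to 11.2 to 13.95 times the 75th percentile in Thio+IL-4c and 7.84 to 9.87 in Thio, against 279 to 305 in IL-4c and 847 to 916 in PBS. Between IL-4c and PBS, 8 of the 11 were lower, beside 15.4% of all genes. Gata6 was not among the 8, with a difference of 0.05 (adjusted p = 0.95). In bulk RNA, fewer cells of a type and less RNA per cell cannot be told apart. The summed signal of 8 B cell markers was 2.07 to 2.22 in Thio+IL-4c, 2.28 to 2.54 in Thio, 1.39 to 1.93 in IL-4c and 6.53 to 14.9 in PBS, and that of 8 measured neutrophil markers was 13.9 to 21.3 in Thio+IL-4c, 9.65 to 17.9 in Thio, 3.22 to 6.52 in IL-4c and 3.78 to 4.63 in PBS. The 7 measured markers of monocyte-derived cells summed to 52.1 to 67.0 in Thio+IL-4c, 20.9 to 25.5 in Thio, 8.33 to 8.99 in IL-4c and 10.7 to 13.5 in PBS. Elane, at 2.2 to 3.5, was the highest neutrophil marker in each Thio array and so weighs most in the neutrophil sum there. Between Thio+IL-4c and IL-4c, 7 of the 8 neutrophil markers were higher and 1 lower, beside 27.9% and 42.1% of all genes. Cd79a, S100a8 and Elane were well above background on all 14 arrays. The part of these cells in the results was not tested.

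The arrays came from 2 slides, each scanned as a unit. Slide 1 held all IL-4c and PBS arrays and Thio replicate 1, and slide 2 held Thio replicates 2 and 3 and all Thio+IL-4c arrays. Over all genes, Thio replicate 1 correlated with the PBS arrays at r of 0.917 to 0.931 and with the other Thio arrays at 0.848 and 0.865, although its resident marker sum of 7.84 was the lowest of the series. Of the 27 clade B serpins, 16 had a level in Thio replicate 1 closer to the PBS mean than to the mean of Thio replicates 2 and 3, and Serpinb9 was the single member among them. The IL-4c against PBS comparison lies within slide 1. Elicited and resident cells on different slides cannot be told apart from the slides, and a fit with slide as a block sets Thio replicate 1 aside in the comparison of Thio+IL-4c with Thio. Its value is given for each named gene called there whose call it ends or whose difference it moves by over 1.5 times.

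Serpinb2, also called plasminogen activator inhibitor type 2, inhibits urokinase. Its level was -1.48, -1.66, -1.996 and 1.15 in the 4 Thio+IL-4c arrays, -4.35, -3.41 and -2.96 in the Thio arrays, 5.82, 5.87, 5.87 and 6.02 in the IL-4c arrays, and 4.89, 4.76 and 4.75 in the PBS arrays. No pair of groups overlapped, and the order was IL-4c, PBS, Thio+IL-4c and then Thio. Relative to resident cells, Serpinb2 was lower by a log2 difference of -8.37 ± 0.66 (SE) in Thio than in PBS, which is 332-fold, and by -6.89 ± 0.57 in Thio+IL-4c than in IL-4c. Across all genes, 44.4% differed between Thio and PBS at an adjusted p under 0.05, 20.2% higher and 24.3% lower in Thio. Between Thio+IL-4c and IL-4c 70.0% differed, 27.9% higher and 42.1% lower in Thio+IL-4c.

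Serpinb2 rose with IL-4 complex in elicited cells, by 2.58 ± 0.61 on the log2 scale between Thio+IL-4c and Thio (limma, Benjamini-Hochberg adjusted p = 0.0055), or 5.96-fold. Thio+IL-4c replicate 4 stood apart at 1.15, and without it the difference was 1.86 (adjusted p = 0.00043). With slide 2 alone, the difference of 2.19 had an adjusted p of 0.11, and with only the Thio+IL-4c and Thio arrays in the fit, that of 2.58 had an adjusted p of 0.063. In resident cells, the difference between IL-4c and PBS was 1.095 ± 0.61 (adjusted p = 0.22) with all arrays in 1 fit. All 4 IL-4c arrays lay above all 3 PBS arrays, and without Thio+IL-4c replicate 4, whose distance from its group widens the shared spread, the same 1.095 had an adjusted p of 0.0086. The effect of IL-4 complex in elicited cells minus that in resident cells was 1.48 (95% interval -0.42 to 3.38, adjusted p = 0.22). This difference of effects is also the elicited-against-resident difference under IL-4 complex minus that without it. For Serpinb2, Serpinb10 and Serpinb7 its p-values therefore draw on values by which these genes were chosen, and are given as a description.

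Serpinb10, or bomapin, is an inhibitor of trypsin-like proteases known from blood-forming cells. Its level was -2.88, -1.94, -2.72 and -2.28 in Thio+IL-4c, -3.55, -5.18 and -4.41 in Thio, 4.00, 3.94, 3.70 and 3.56 in IL-4c, and 4.55, 4.61 and 4.56 in PBS. The 4 groups did not overlap, in the order PBS, IL-4c, Thio+IL-4c and Thio. Relative to resident cells, Serpinb10 was lower by -8.95 ± 0.35 (log2, SE) in Thio than in PBS, which is 496-fold, and by -6.25 ± 0.30 in Thio+IL-4c than in IL-4c.

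IL-4 complex went with opposite differences of Serpinb10 in the 2 kinds of macrophage. In elicited cells it rose by 1.92 ± 0.33 on the log2 scale, or 3.79-fold (adjusted p = 0.00055). In resident cells the difference was -0.78 ± 0.33 (95% interval -1.49 to -0.06, adjusted p = 0.097). The difference between the 2 effects was 2.70 ± 0.46 (adjusted p = 0.00086). The resident difference passed the test, at an adjusted p of 0.021, when Thio replicate 1 was left out. All IL-4c arrays lay below all PBS arrays for Serpinb10, and above them for its neighbour Serpinb2.

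Serpinb7, also called megsin, was first described in the mesangial cells of the kidney. It showed the largest response to IL-4 complex among the members. Its level was 3.13, 3.24, 3.04 and 3.03 in IL-4c and -3.79, -3.59 and -3.86 in PBS. It was -5.78, -7.17, -7.68 and -5.97 in Thio+IL-4c and -5.68, -7.73 and -4.92 in Thio, where the groups overlapped. Serpinb7 therefore was above the 75th percentile of signals in the IL-4c group only, and ordered as IL-4c, then PBS, then both elicited groups without an order between them.

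In resident cells, Serpinb7 rose by 6.86 ± 0.59 on the log2 scale in IL-4c relative to PBS (adjusted p = 3.7e-06), or 116-fold. The processed signal was 24998 to 36489 units in IL-4c and 87.7 to 150 in PBS. In elicited cells the difference was -0.54 ± 0.59, with a 95% interval of -1.84 to 0.76 (adjusted p = 0.47). The 2 effects differed by -7.40 ± 0.84 (adjusted p = 5.0e-05), and by -7.18 with slide as a block (adjusted p = 0.00013). Both p-values draw on the elicited and resident levels by which Serpinb7 was chosen. Relative to resident cells, Serpinb7 was lower by -2.36 ± 0.64 in Thio than in PBS and by -9.76 ± 0.55 in Thio+IL-4c than in IL-4c. Serpinb7 was near background in elicited cells, and these last values came to -1.29 and -7.62 with normexp correction and quantile normalization.

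**Figure D1:**
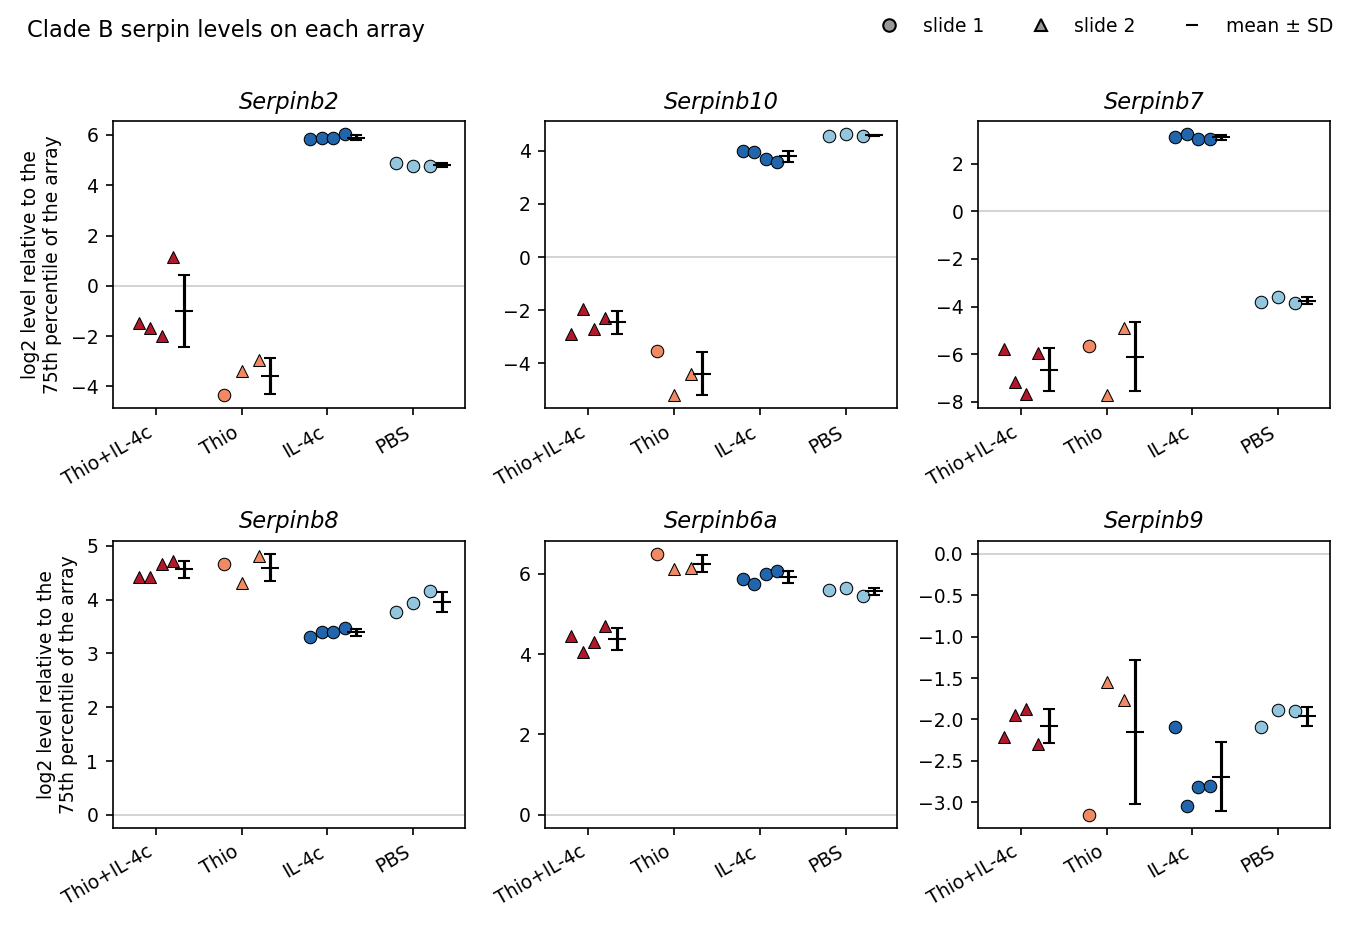
Log2 level relative to the 75th percentile of the array (y axis) for the 6 members in each array of the 4 groups (x axis), with circles for slide 1, triangles for slide 2, and the mean ± SD beside each group. Serpinb2 and Serpinb10 are high in both resident groups, Serpinb7 reaches 3.03 to 3.24 in IL-4c arrays, Serpinb6a is lowest in Thio+IL-4c, and 1 Thio+IL-4c array stands apart for Serpinb2 at 1.15.

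Serpinb8, whose human counterpart inhibits the proprotein convertase furin, ran the other way from its neighbours between elicited and resident cells. Its level was 4.43, 4.43, 4.67 and 4.73 in Thio+IL-4c, 4.67, 4.31 and 4.80 in Thio, 3.31, 3.41, 3.40 and 3.47 in IL-4c, and 3.77, 3.94 and 4.15 in PBS. Both elicited groups overlapped each other and lay above both resident groups, which did not overlap. Relative to resident cells, Serpinb8 was higher by 0.64 ± 0.15 (log2, SE) in Thio than in PBS and by 1.17 ± 0.13 in Thio+IL-4c than in IL-4c.

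In resident cells, Serpinb8 fell by 0.56 on the log2 scale with IL-4 complex (SE 0.14, adjusted p = 0.0081), although in the authors' deposited table the difference was -0.22 (adjusted p = 0.29). In elicited cells the difference was -0.03, with a 95% interval of -0.34 to 0.27 (adjusted p = 0.87). The 2 effects differed by 0.53 ± 0.20 (adjusted p = 0.060). Furin, looked up in elicited cells after its values were seen, rose there by 0.37 ± 0.13 (adjusted p = 0.038) and fell by 0.64 in resident cells (SE 0.13, adjusted p = 0.0018).

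Serpinb6a, one of several mouse counterparts of the human inhibitor of cathepsin G and kallikrein 8, had its lowest levels in Thio+IL-4c. They were 4.45, 4.06, 4.31 and 4.71 there, 6.49, 6.12 and 6.15 in Thio, 5.87, 5.74, 5.99 and 6.07 in IL-4c, and 5.59, 5.64 and 5.45 in PBS. No groups overlapped. Relative to resident cells, Serpinb6a was higher by 0.69 ± 0.17 in Thio than in PBS and lower by -1.53 ± 0.14 in Thio+IL-4c than in IL-4c.

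Serpinb6a fell by 1.87 on the log2 scale with IL-4 complex in elicited cells (SE 0.16, adjusted p = 2.1e-06), a level 3.66-fold lower than in Thio. In resident cells the difference had the other sign, 0.36 ± 0.16 (adjusted p = 0.11). The 2 effects differed by -2.23 ± 0.22 (adjusted p = 1.9e-05). With slide as a block these were -1.75 in elicited cells (adjusted p = 7.8e-06) and -2.11 for the difference of effects (adjusted p = 2.7e-05).

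Serpinb9, which inhibits granzyme B and so shields cells from their own or neighbouring cytotoxic granules, was the member whose groups all overlapped. Its level was -2.22, -1.95, -1.87 and -2.29 in Thio+IL-4c, -3.15, -1.54 and -1.77 in Thio, -2.09, -3.05, -2.82 and -2.80 in IL-4c, and -2.10, -1.89 and -1.90 in PBS. The low Thio value was that of replicate 1. The difference with IL-4 complex was 0.07 ± 0.34 in elicited cells (95% interval -0.67 to 0.82, adjusted p = 0.87) and -0.73 ± 0.34 in resident cells (95% interval -1.48 to 0.02, adjusted p = 0.14). Without Thio replicate 1 the elicited difference was -0.43 (adjusted p = 0.17) and the resident one passed the test (adjusted p = 0.013). The 2 effects differed by 0.80 (adjusted p = 0.23). Relative to resident cells, Serpinb9 differed by -0.19 ± 0.36 in Thio from PBS, and by 0.31 without Thio replicate 1.

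Counted over the members, IL-4 complex changed 3 of 6 in elicited cells, Serpinb2 and Serpinb10 upwards and Serpinb6a downwards, beside 39.3% of all 20346 genes. In resident cells it changed 2 of 6, Serpinb7 upwards and Serpinb8 downwards, beside 32.1% of all genes. The effect differed between elicited and resident cells for 3 of 6, Serpinb7, Serpinb10 and Serpinb6a, beside 32.5% of all genes. Of these, 1 was positive and 2 negative, beside 12.8% and 19.8% of all genes. Serpinb7 and Serpinb10 were chosen by values that enter this difference, so their calls for it are not independent of the choice. No member passed the test in both kinds of cell. The median log2 difference of the members was 0.02 in elicited cells, where that of all genes was 0.036, and -0.10 in resident cells, where that of all genes was -0.013. These shares are near those of all genes. When only the 7 resident arrays were fitted, all 6 members passed in resident cells, with Serpinb2, Serpinb7 and Serpinb6a higher and Serpinb8, Serpinb10 and Serpinb9 lower, and 47.3% of all genes did. With all groups in the fit, 4 members passed in resident cells with normexp and quantile normalization, beside 31.9% of all genes. With slide as a block, and likewise without Thio replicate 1, 4 passed beside 43.2%, and with array weights 5 passed beside 44.8%.

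**Figure D2:**
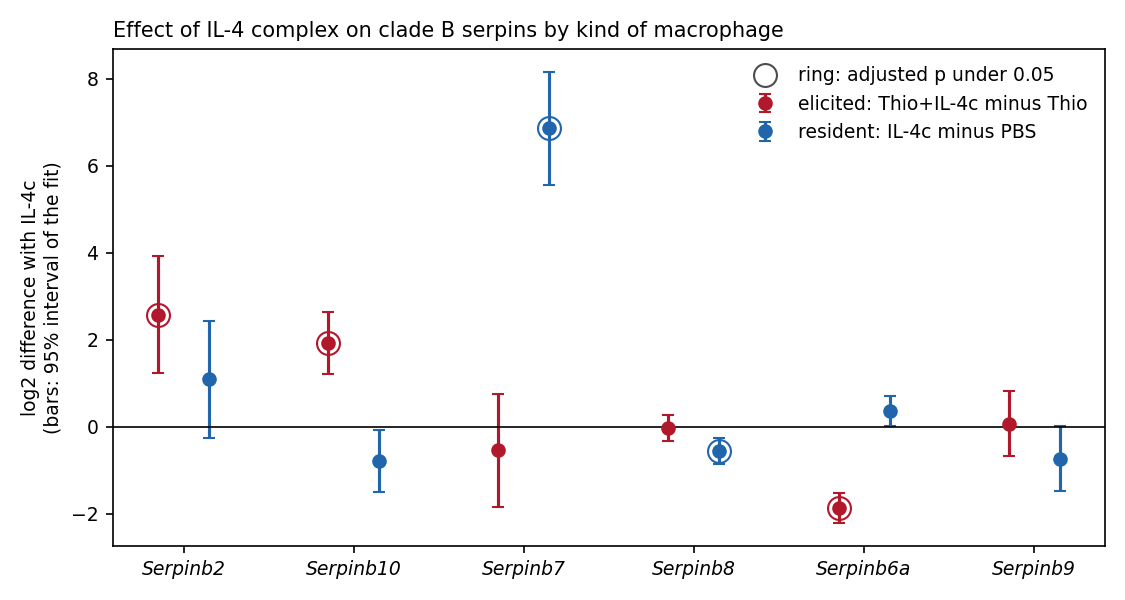
Log2 difference with IL-4 complex (y axis) for each member (x axis), in elicited cells (red, Thio+IL-4c minus Thio) and resident cells (blue, IL-4c minus PBS), with 95% intervals of the fit and a ring where the adjusted p was under 0.05. Serpinb7 stands at 6.86 in resident cells, and Serpinb10 and Serpinb6a have differences of opposite sign in the 2 kinds of cell.

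Among the other 21 clade B serpins, Serpinb1a and Serpinb1c shared the high level in resident cells. Serpinb1a, an inhibitor of neutrophil elastase and cathepsin G, was at 1.66 to 2.19 in Thio+IL-4c and 0.52 to 1.20 in Thio, against 5.29 to 5.71 in IL-4c and 4.75 to 4.98 in PBS. It rose with IL-4 complex both in elicited cells, by 1.001 ± 0.19 on the log2 scale (adjusted p = 0.0013), and in resident cells, by 0.55 ± 0.19 (adjusted p = 0.048). Serpinb1c rose by 1.63 ± 0.24 in elicited cells (adjusted p = 0.00021), and its resident difference was 0.63 (adjusted p = 0.073, and 0.0094 with slide as a block).

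The close paralogs of Serpinb6a fell with it in elicited cells. Serpinb6c fell by 1.98 (adjusted p = 2.3e-06), Serpinb6e by 1.44 (adjusted p = 6.6e-05) and Serpinb6d by 1.20 (adjusted p = 8.1e-05), all on the log2 scale. Serpinb6d rose by 0.52 in resident cells (adjusted p = 0.027). The effects differed between elicited and resident cells for all of Serpinb6c, Serpinb6d and Serpinb6e, by -2.35, -1.72 and -1.84. Whether a probe of one of these near-identical genes also bound RNA of another was not tested. Serpinb6b, the remaining relative, had differences of 0.21 in elicited cells (adjusted p = 0.61) and -0.38 in resident cells (adjusted p = 0.45).

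Over the chromosome 13 cluster, 2 of 15 measured genes rose and 6 fell with IL-4 complex in elicited cells, with a median of -1.19, beside 16.3% and 23.0% of all genes. The genes that fell also included Serpinb1b and Serpinb9c, by 1.19 (adjusted p = 0.010) and 1.42 (adjusted p = 0.0043). With slide as a block the Serpinb9c difference was -0.92 (adjusted p = 0.0032). A dimmer second probe of Serpinb9c was at -4.12 to -2.90 in Thio+IL-4c and at -3.30, -5.24 and -4.97 in Thio, so that it did not show the fall of the first probe. In resident cells 2 of the 15, Serpinb1a and Serpinb6d, rose and none fell, beside 16.8% higher and 15.4% lower among all genes. Over the 12 genes on chromosome 1, 3 rose in elicited cells and none fell, Serpinb11 being the third beside Serpinb2 and Serpinb10. Serpinb11 was higher by 1.83 (adjusted p = 0.029), but its level in Thio replicate 1, -3.09, was far below the -0.28 and -0.93 of the other Thio arrays, and with slide as a block the difference was 1.004 (adjusted p = 0.099).

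**Figure D3:**
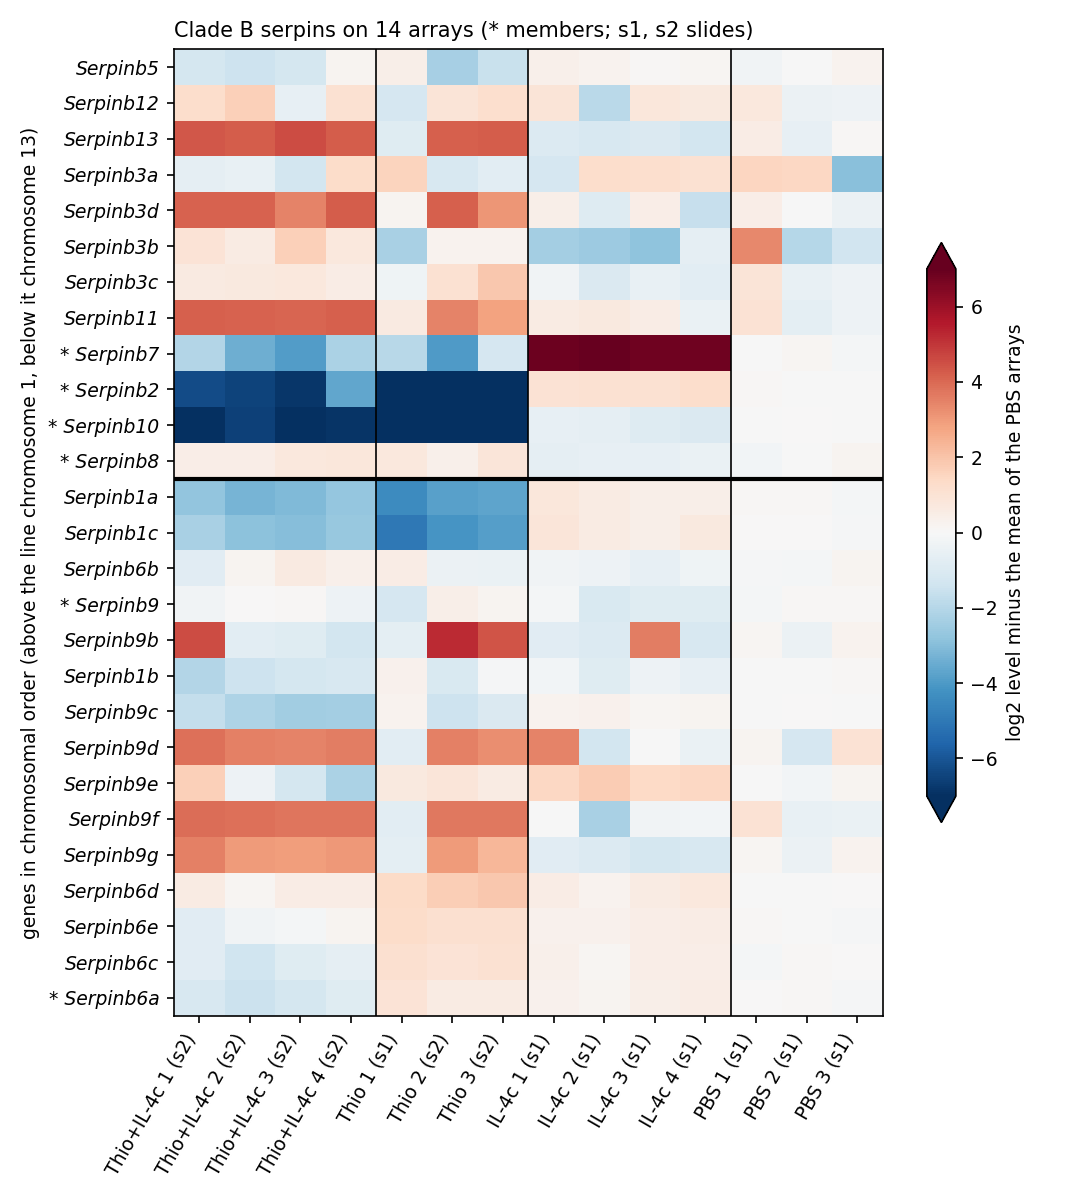
Log2 level of each of 27 clade B serpins minus its mean in PBS arrays (colour, red higher and blue lower, capped at 7), with genes in chromosomal order down the page and the 14 arrays across, s1 and s2 marking the slide. Serpinb2 and Serpinb10 are blue in both elicited groups, Serpinb7 is red in IL-4c arrays, and Serpinb13, Serpinb3d, Serpinb9f and Serpinb9g are red on slide 2 arrays and not in Thio 1.

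The genes most like each member over the 14 arrays are given as a description, with Pearson's r, since arrays share groups and slides. For Serpinb2 they were Efnb2 (r = 0.995), Dpysl3 (0.994) and Alox5 (0.989). Each of them was also highest among Thio+IL-4c arrays in replicate 4. Likeness was read on the same arrays, so the choice favours genes that share the high value of that array. Alox5, the enzyme that starts leukotriene synthesis, reached 2.38 there against 0.79 to 1.36 in the other Thio+IL-4c arrays. The resident marker sum of that array, 11.2, was the lowest of its group, but single markers did not all follow the sum. Timd4, at -0.51, and Ltbp1, at -5.60, were highest of the group in that array. The part of resident cells in its values was not tested. For Serpinb10 the nearest genes were S1pr5 (0.996), a receptor of sphingosine 1-phosphate, Dab2ip (0.995) and Uap1 (0.991).

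For Serpinb7 the nearest genes were Cavin3 (0.986), a coat protein of caveolae, Cc2d2a (0.982) and Ncapd3 (0.977). Cavin3 was at 1.31 to 1.67 in IL-4c and -1.85 to -1.81 in PBS. For Serpinb8 they were Ms4a4c (0.9749), Wdr89 (0.972) and Eya1 (0.972), and for Serpinb6a they were Mocos (0.980), Klb (0.979), the co-receptor of some fibroblast growth factors, and Zswim2 (0.978). Serpinb9 had the loosest likeness, with Atg2b (0.917), Trim30b (0.899) and Siglecg (0.890). Trim30b was at -3.80 in Thio replicate 1 and -0.60 in both other Thio arrays. Its choice by likeness to Serpinb9 over the same arrays favours such a shared low value. Among the members, Serpinb2 and Serpinb10 correlated at r = 0.961, and Serpinb7 and Serpinb8 at -0.899. These values include the gap between elicited and resident cells for which Serpinb2, Serpinb10 and Serpinb7 were chosen. With IL-4 complex in resident cells, Serpinb2 and Serpinb10 had differences of opposite sign, 1.095 and -0.78.

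The plasminogen system, in which Serpinb2 acts, was measured for all 17 listed genes. In elicited cells 3 of 17 rose and 4 fell with IL-4 complex, beside 16.3% and 23.0% of all genes, and those named here are examples. Vldlr, a receptor that clears protease and inhibitor complexes, rose by 2.97 ± 0.50 (log2, SE, adjusted p = 0.00054) and the plasminogen-binding enolase Eno1 by 0.69 (adjusted p = 0.00018). The level of Vldlr was -3.53 to -2.97 in Thio+IL-4c and -7.725, -5.739 and -5.015 in Thio, where replicate 1, the lowest, was near background. Lrp1, another clearance receptor, fell by 2.14 (adjusted p = 4.0e-07), thrombomodulin (Thbd) by 2.13 (adjusted p = 1.0e-06) and the urokinase receptor Plaur by 0.61 (adjusted p = 0.0048).

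In resident cells 4 of 17 plasminogen genes rose and 1 fell, beside 16.8% and 15.4% of all genes. The subunits of the annexin plasminogen receptor rose together, Anxa2 by 1.34 (adjusted p = 5.3e-05) and S100a10 by 1.06 (adjusted p = 0.0020), and histidine-rich glycoprotein (Hrg) by 1.24 (adjusted p = 0.048), while Lrp1 fell by 0.90 (adjusted p = 0.00039). The effects differed for 6 of 17, beside 32.5% of all genes, most for Vldlr at 4.13 (adjusted p = 0.00090) and Thbd at -1.69 (adjusted p = 0.00017). Vldlr was near background in resident cells, at -8.90 to -7.91 in IL-4c and -7.57 to -7.08 in PBS, which limits the size of its difference. Plau, the urokinase that Serpinb2 inhibits, was named after its values were seen. It was at -0.52, -0.36, -0.38 and -1.33 in Thio+IL-4c, -0.04, -0.13 and -0.42 in Thio, -2.12, -2.18, -2.04 and -2.01 in IL-4c, and -1.59, -2.83 and -3.31 in PBS. Urokinase therefore was higher in every elicited array than in every resident one, opposite to Serpinb2, and its differences with IL-4 complex were -0.45 (adjusted p = 0.32) in elicited and 0.49 (adjusted p = 0.36) in resident cells.

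Of 20 measured proteases known as targets of clade B serpins, 4 rose and 3 fell with IL-4 complex in elicited cells, beside 16.3% and 23.0% of all genes. Klk8, the kallikrein that the human counterpart of Serpinb6a inhibits, was at 2.14, 1.92, 2.12 and 3.56 in Thio+IL-4c and -3.09, -3.77 and -3.22 in Thio, against 1.29, 1.55, 1.99 and 2.42 in IL-4c and 0.14, 0.37 and -0.22 in PBS. It rose by 5.79 ± 0.39 on the log2 scale in elicited cells (adjusted p = 4.2e-07), or 55.5-fold, and by 1.71 ± 0.39 in resident cells (adjusted p = 0.0046). Proteinase 3 (Prtn3) rose by 1.47 (adjusted p = 0.00028) and granzyme A (Gzma) by 1.05 (adjusted p = 0.025) in elicited cells. Cathepsin K (Ctsk) fell by 2.17 (adjusted p = 0.00023), cathepsin H (Ctsh) by 1.05 (adjusted p = 3.9e-05) and caspase 1 (Casp1) by 0.87 (adjusted p = 1.2e-05).

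In resident cells 3 of 20 of these proteases rose and 5 fell, beside 16.8% and 15.4% of all genes. Besides Klk8, cathepsin L (Ctsl) rose by 0.85 (adjusted p = 0.00065) and Casp8 by 0.45 (adjusted p = 0.0088), while granzyme M (Gzmm) fell by 2.24 (adjusted p = 0.00062) and cathepsin S (Ctss) by 1.01 (adjusted p = 0.00064). The effects differed for 8 of 20, beside 32.5% of all genes, among them Klk8 at 4.08 (adjusted p = 0.00017) and Ctsk at -2.19 (adjusted p = 0.0034). The median log2 difference of the list was -0.21 in elicited and -0.14 in resident cells, that of the plasminogen genes -0.13 and 0.18. Of the 18 measured serpins of other clades, 3 rose, among them Serpind1 and Serpina3f, and 2 fell, Serpini1 and Serpina3m, in elicited cells, beside 16.3% and 23.0% of all genes. With slide as a block, Serpini1 lost its call, at -0.67 (adjusted p = 0.059) against -1.11. The difference of Serpind1 was then 0.63, against 1.71, and that of Serpina3f 2.10, against 1.39. Serpind1 was well above background on 4 of 4 Thio+IL-4c and 2 of 3 Thio arrays, replicate 1 being the exception. In resident cells 1 of the 18, Serpinf1, fell by 1.07 (adjusted p = 0.045), beside 15.4% of all genes.

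**Figure D4:**
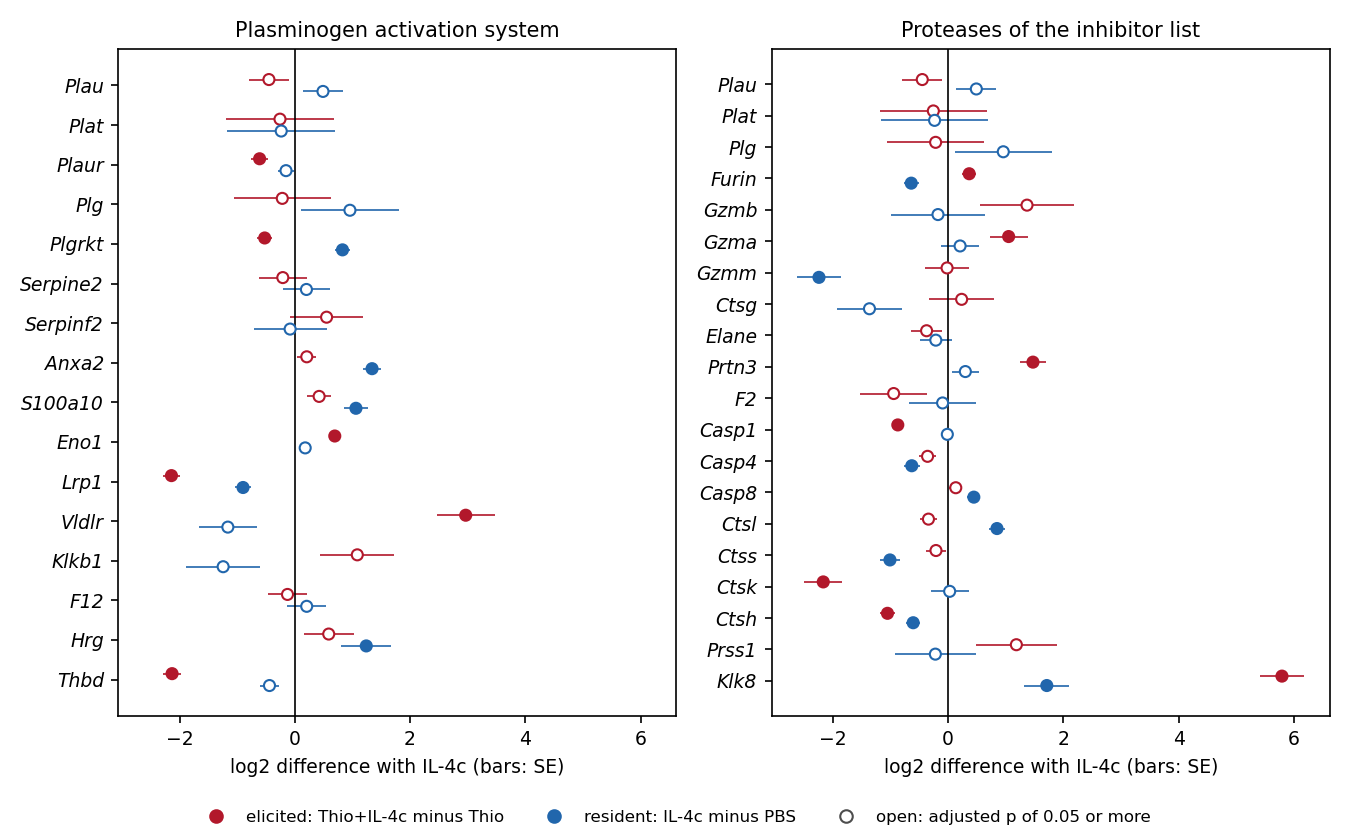
Log2 difference with IL-4 complex and its SE (x axis) for most genes of the plasminogen system and for proteases known as targets of clade B serpins (y axis), in elicited (red) and resident (blue) cells, filled where the adjusted p was under 0.05. Klk8 stands at 5.79 in elicited and 1.71 in resident cells, and Lrp1 is lower in both.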

How the data were processed

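RNA of 14 samples was measured on Agilent single-dye arrays, grouped by the treatment label. The authors deposited scanner tables of spot intensity, which the file headers credit to Feature Extraction 11.0.1.1. The submitters' processing notes name Agilent Feature Extraction 11.5, and limma. The processed signal is background-subtracted, with a spatial detrending fit recorded per the file headers. The authors also deposited a table of log2 values, whose median is 9.23407 on every array and which correlates at r of 0.989 to 0.995 with log2 of that array's median signals. 

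From the 62976 spots of an array, 3671 control spots and 113 to 165 spots with an outlier mark were left out, and no spot was saturated. Log2 of the processed signal minus log2 of its 75th percentile on the array was used, and spots of 1 probe were averaged. That percentile was 1271 to 3866 signal units, and the number of arrays limits precision. Probes were named by accession, without version, in RefSeq's GRCm38.p6 gene table, which gave 1 symbol to 27235 of 55681 probes. Genes well above background on at least 3 arrays were tested, and a gene with several probes was read by the probe with the highest mean level. limma 3.58.1 in R 4.3.3 fitted 1 mean per group over all 14 arrays, with Benjamini-Hochberg adjustment over 20346 genes, two-sided, and calls at an adjusted p under 0.05. The fit was tested on simulated data.

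The members and the gene lists were chosen with earlier results of these data known. Named genes were the members, the 3 most alike genes of each, all clade B serpins, and up to 3 called genes with the largest rise and fall per list and comparison. Comparisons between IL-4c and PBS and between Thio and PBS share the PBS arrays. The alternatives were other normalizations, filters and probe rules, the slide or replicate number as a block, single slides, array weights, fits of the compared groups only, and leaving out each array. Some genes of the lists are not reported here. The normexp alternative used the median signal, because the files hold no mean signal. Same-numbered samples of different groups correlated in their deviations at r of -0.446 to 0.368, with 4 of 19 pairs over 0.1, so the numbers were not treated as pairs.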

Additional observations from a re-analysis of the deposited data

Results flagged for a closer look

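Serpinb2 in Thio+IL-4c replicate 4, at a log2 level of 1.15, lay far from the other Thio+IL-4c arrays, which were at -1.996 to -1.48. Its gap to the nearest array, relative to the range of the group, exceeded the critical value of Dixon's test at the 95% level. That test was run on 12 sets of 4 arrays, and chance marks about 1 in 20. In the same array Klk8 was at 3.56, against 1.92 to 2.14 in the other arrays of its group.

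The effect of IL-4 complex differed between elicited and resident cells for 3 of 6 members by the interaction test of limma, beside 32.5% of all 20346 genes. The difference of effects was -7.40 for Serpinb7, with a rise in resident cells. It was 2.70 for Serpinb10, with a rise in elicited cells, and -2.23 for Serpinb6a, with a fall in elicited cells. Serpinb7 and Serpinb10 were chosen by elicited and resident levels that enter this test, so their results in it are not independent of the choice. All Thio+IL-4c arrays were on slide 2 and all IL-4c and PBS arrays on slide 1.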

How the results depend on the processing

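The count of members that passed in IL-4c against PBS, 2 of 6, was 4 with normexp and quantile normalization, 4 with slide as a block, 6 with slide 1 only, 5 with array weights, 6 with only the groups of the comparison, and 2 to 4 on leaving out 1 array, with 4 without Thio replicate 1. The other counts of members stayed within 1.5 times, at 2 to 4 of 6 in Thio+IL-4c against Thio and 3 to 4 of 6 for the difference of effects. Of all 20346 genes, 5354 to 10471 and 5709 to 9598 passed in these comparisons under the same alternatives. With the replicate block, 2, 3 and 4 members passed, the last count gaining Serpinb8 (adjusted p = 0.049). Signs turned for small differences. In Thio+IL-4c against Thio, Serpinb7 was 0.13 in the authors' table and 0.056 without Thio replicate 3. Serpinb8 was 0.0054 with slide as a block or slide 2 only and -0.17 to 0.073 on leaving out 1 array. Serpinb9 was -0.060 with quantile normalization, -0.066 with normexp, -0.078 in the authors' table, -0.29 with array weights, and -0.43 with slide as a block, slide 2 only or without Thio replicate 1, and -0.43 to 0.38 on leaving out 1 array. In Thio against PBS, Serpinb9 was 0.21 with array weights and -0.50 to 0.31 on leaving out 1 array, the last without Thio replicate 1, and in Thio+IL-4c against IL-4c it was -0.89 with slide as a block. Serpinb7 in elicited cells passed with array weights (-1.44, adjusted p = 0.043) and without Thio replicate 2 (-1.35, adjusted p = 0.037). Array weights gave Thio replicate 1 a weight of 0.0558, and the cause was not tested. Of all values of single members under the alternatives, 659 kept direction and call, 29 gained a call, 3 lost it, 23 moved by more than the spread and 18 turned sign. Over all genes, the authors' table shifted the median difference of effects to -0.198, against -0.05, and that between Thio+IL-4c and IL-4c to -0.432, against -0.205.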
